A study of Mus musculus with 10 samples.

Results

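H3K27ac was mapped by ChIP-seq with a Drosophila S2 spike-in (antibody ab4729, Abcam) in mCherry+ mesoderm cells sorted from day 4 embryoid bodies (EBs), the aggregates that mouse embryonic stem (ES) cells form as they differentiate. There were 2 genotypes with 1 H3K27ac library each, the labels *Scl* wt (WT) and *Scl* d/d (Delta). All peaks of both H3K27ac lists were taken, 4571 in WT and 5269 in Delta, which makes 9840 of the 70826 peaks listed for 4 histone marks. A gene was read as acetylated when a peak came within 2.5 kb of the transcription start site (TSS) of any of its protein-coding transcripts (GENCODE M1, mm9).

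The WT cells came from the *Scl*:mCherry line, made in J1 ES cells, in which 1 allele of *Scl* (the gene *Tal1*) carries mCherry and SCL stays functional. The Delta cells came from *Scl* Δ/Δ:mCherry, made from that line by removing from both alleles the bHLH domain (basic helix-loop-helix), with which SCL binds DNA and its partners. Each reporter was a single-cell clone, so genotype and clone cannot be told apart. The labels give the strain as C57Bl/6 X Sv132 for WT and C57Bl/6 X Sv131 for Delta. The Delta line was made from the WT line, so these numbers are not read as a difference of strain. mCherry marks cells that transcribe *Scl*, whatever protein they then make. The libraries hold sorted populations, so fewer acetylated cells and less acetylation per cell cannot be told apart. Replicates were lacking for every difference given here, and all intervals (95%) cover counting error only.

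H3K27ac is deposited by the acetyltransferases p300 and CBP, marks active promoters and enhancers, and cannot sit on a histone tail that carries Polycomb's H3K27me3. SCL, also called TAL1, binds DNA as a dimer with an E protein on E-box letters, often beside GATA letters in a complex with LMO2, LDB1 and a GATA factor. SCL is required in early mesoderm for every blood lineage.

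Some of the DNA under peaks that were listed in 1 genotype only is printed here, from the mm9 reference, top strand, 300 bases around the peak midpoint. Peaks were chosen because they flank the genes on which the comparison below turns. Capitals mark the E-box letters CAGNTG and the GATA letters AGATAA on either strand. In 25571 windows of the same length, spaced 100 kb apart along the genome, 49.7% hold CAGNTG and 19.2% hold AGATAA, so a match is common and describes the letters only. Enhancers upstream of *Tal1*, downstream of its last exon and farther downstream, upstream of *Fli1* and inside *Gata2* are known from mouse blood. The windows of WT-only peaks, meaning WT peaks that no Delta peak overlapped by 1 bp, lie upstream of *Tal1* at chr4:114725089-114725388, downstream of it at chr4:114747602-114747901 and chr4:114768302-114768601, upstream of *Fli1* at chr9:32363462-32363761, in an intron of *Gata2* at chr6:88153745-88154044, and upstream of *Cbfa2t3* at chr8:125244431-125244730.
*Tal1* upstream, WT-only: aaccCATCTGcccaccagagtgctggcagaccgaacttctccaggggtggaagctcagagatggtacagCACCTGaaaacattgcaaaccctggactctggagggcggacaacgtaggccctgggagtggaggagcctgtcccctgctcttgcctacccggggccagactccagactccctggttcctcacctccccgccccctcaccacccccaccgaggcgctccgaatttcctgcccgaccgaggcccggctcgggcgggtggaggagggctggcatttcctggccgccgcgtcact
*Tal1* downstream, nearer, WT-only: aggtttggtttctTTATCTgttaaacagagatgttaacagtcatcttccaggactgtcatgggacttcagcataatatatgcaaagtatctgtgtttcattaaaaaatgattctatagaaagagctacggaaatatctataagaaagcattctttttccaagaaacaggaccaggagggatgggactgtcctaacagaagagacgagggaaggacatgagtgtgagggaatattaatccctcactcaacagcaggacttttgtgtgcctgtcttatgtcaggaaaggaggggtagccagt
*Tal1* downstream, farther, WT-only: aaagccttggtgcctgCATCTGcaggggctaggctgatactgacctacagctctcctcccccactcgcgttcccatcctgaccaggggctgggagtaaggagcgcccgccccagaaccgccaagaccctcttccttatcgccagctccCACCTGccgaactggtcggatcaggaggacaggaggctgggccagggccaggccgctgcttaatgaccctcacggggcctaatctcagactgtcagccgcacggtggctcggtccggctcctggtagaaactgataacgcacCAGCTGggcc
*Fli1* upstream, WT-only: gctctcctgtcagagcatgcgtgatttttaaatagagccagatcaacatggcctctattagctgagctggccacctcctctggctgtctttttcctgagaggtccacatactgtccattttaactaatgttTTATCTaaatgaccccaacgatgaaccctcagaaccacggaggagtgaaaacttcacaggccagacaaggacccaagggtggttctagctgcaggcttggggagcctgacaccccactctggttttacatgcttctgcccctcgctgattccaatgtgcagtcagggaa
*Gata2* intron, WT-only: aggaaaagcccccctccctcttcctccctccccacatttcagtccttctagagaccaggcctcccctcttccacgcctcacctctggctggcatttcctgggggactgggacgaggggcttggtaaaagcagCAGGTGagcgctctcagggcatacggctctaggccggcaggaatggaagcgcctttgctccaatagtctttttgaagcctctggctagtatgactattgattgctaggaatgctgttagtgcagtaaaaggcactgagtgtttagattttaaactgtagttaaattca
*Cbfa2t3* upstream, WT-only: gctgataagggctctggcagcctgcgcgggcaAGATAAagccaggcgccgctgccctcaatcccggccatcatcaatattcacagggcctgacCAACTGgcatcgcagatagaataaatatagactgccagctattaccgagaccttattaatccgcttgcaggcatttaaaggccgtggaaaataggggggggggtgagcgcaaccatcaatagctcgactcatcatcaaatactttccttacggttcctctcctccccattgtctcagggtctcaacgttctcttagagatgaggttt

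The window of a Delta-only peak shown for contrast lies in an intron of the endothelial gene *Eng* at chr2:32510565-32510864. It holds E-box letters and no AGATAA.
*Eng* intron, Delta-only: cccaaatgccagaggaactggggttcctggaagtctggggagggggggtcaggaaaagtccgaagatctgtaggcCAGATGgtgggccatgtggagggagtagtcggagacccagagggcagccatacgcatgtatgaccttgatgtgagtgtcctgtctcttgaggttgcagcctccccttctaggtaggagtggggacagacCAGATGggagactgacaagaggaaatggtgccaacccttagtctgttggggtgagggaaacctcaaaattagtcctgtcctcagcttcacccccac

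To ask where the lists differ, each peak was sorted by whether the other list overlapped it and by whether it lay near a TSS. Near a TSS there were 748 WT-only peaks and 1370 Delta-only peaks, beside 3144 WT and 3139 Delta peaks with a counterpart. Farther than 2.5 kb from any TSS there were 463 WT-only and 542 Delta-only peaks, beside 216 WT and 218 Delta peaks with a counterpart. Over all listed peaks, whatever their strength, promoter peaks were thus mostly common to both genotypes, and distal peaks mostly were not.

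**Figure D1:**
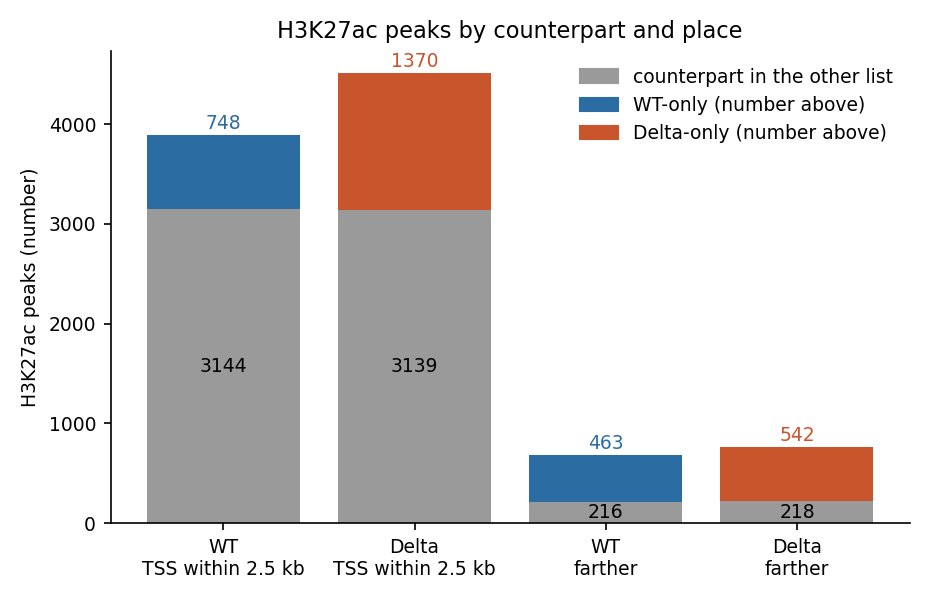
Number of H3K27ac peaks (y axis) in the WT and Delta lists, near a TSS (within 2.5 kb) and farther away, with 1 library a bar and no error bars. Grey parts are peaks that the other list overlaps by at least 1 bp. Coloured parts are peaks of 1 genotype, 748 (WT) and 1370 (Delta) near a TSS and 463 and 542 farther away.

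Peaks of 1 genotype were shorter and weaker than the rest. WT-only peaks had a median length of 376 bp and a median −log10 q of 2.63, against 600.5 bp and 4.07 for WT peaks with a counterpart. Delta-only peaks had a median length of 384 bp and a median −log10 q of 2.32, against 628 bp and 3.76. The q-value is the peak caller's own and measures how far a peak stands above its local background. Peaks under a −log10 q of 3 made up 60.8% of WT-only and 73.4% of Delta-only peaks, and 27.8% and 30.9% of the peaks with a counterpart. They made up 61.4% of distal WT and 72% of distal Delta peaks, against 36.56% and 46.35% of the whole lists. How far strength accounts for the lower share of distal peaks with a counterpart was not tested.

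The share of peaks with a counterpart climbed with strength in both lists. Among WT peaks it was 48.1% (Wilson interval 44.0 to 52.3) below a −log10 q of 2 and 96.7% (94.3 to 98.1) at 8 or more. Among Delta peaks it was 27.4% (24.6 to 30.4) and 97.1% (92.7 to 98.9). From a −log10 q of 3 upwards the intervals of the lists overlapped in every class, and below 3 the Delta list had the lower share. The surplus of Delta-only peaks lay mainly below that value.

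**Figure D2:**
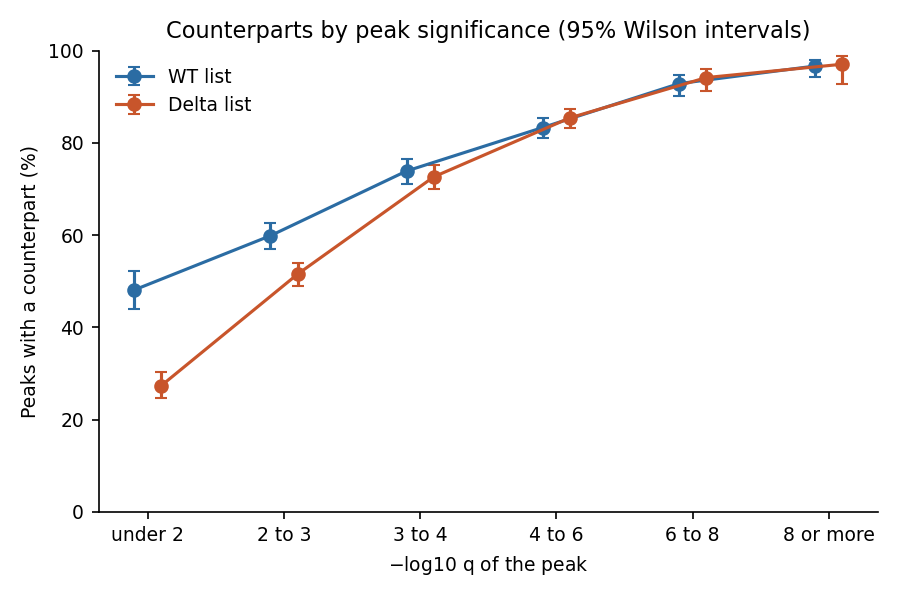
Percent of H3K27ac peaks with a counterpart in the other list (y axis) in classes of the peak's −log10 q (x axis), for the WT list and the Delta list, with 95% Wilson intervals as bars. Both lines climb to about the same level, 96.7% and 97.1%, and part only below 3, where the Delta list is lower.

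Peaks that matched 1 to 1 numbered 3297. Their length in Delta over WT had a median of 1.01 (quartiles 0.738 to 1.42). In 413 pairs the Delta peak was at least 2 times as long and in 363 pairs the WT peak was. Where a peak had no counterpart, the nearest peak of the other list lay far off, at a median of 64538 bp for WT-only and 74080 bp for Delta-only peaks. It was within 1000 bp for 5.61% of WT-only and 4.81% of Delta-only peaks.

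The DNA under the peaks differed with their class. Median GC content was 57.4% under WT-only and 61.7% under Delta-only peaks, and 66.5% and 66.8% under peaks with a counterpart. H3K4me3, the mark of promoters, was listed in WT over 95.3% of WT-only and 95.7% of Delta-only peaks near a TSS. Among distal peaks it was listed in WT over 14.3% (11.4 to 17.7) of WT-only and 22.5% (19.2 to 26.2) of Delta-only peaks, against 60.6% of WT distal peaks with a counterpart. Distal peaks of 1 genotype thus mostly lay outside H3K4me3, in introns (50.1% of WT-only, 46.9% of Delta-only) or between genes (44.3% and 49.8%). On the X chromosome the lists held 30 WT and 50 Delta peaks, of which 12 and 32 had no counterpart.

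Of 22359 protein-coding genes, 19.9% had H3K27ac at a TSS in WT and 22.8% in Delta. It was listed in both for 16.4%, in WT alone for 3.43% (768 genes) and in Delta alone for 6.37% (1424 genes). These shares are the background for every gene list below. The numbers of WT-alone and Delta-alone genes depended on peak strength, and their order turned. When the peak had to reach a −log10 q of 4, with any peak of the other list still counting against it, 186 genes were WT alone and 183 Delta alone, and at 6 they were 38 and 25. At genes acetylated in both, the covered length within 2.5 kb of a TSS had a median of 624 bp in WT against 664 bp in Delta, longer in Delta at 1900 genes and in WT at 1767.

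Blood transcription factor genes were mostly acetylated in WT alone, where they were acetylated at all. Of 29 such genes, 10 had H3K27ac at the TSS in WT alone (34.5%, 19.9 to 52.7, against 3.43% of all genes), 1 in Delta alone, 6 in both and 12 in neither. The WT-alone genes were *Tal1* itself and its relative *Lyl1*, the SCL partner *Lmo2*, the GATA factor *Gata2*, the ETS factors *Fli1*, *Erg* and *Sfpi1* (PU.1), the homeobox factor *Hhex*, the erythroid and megakaryocyte factor *Nfe2*, and *Cbfa2t3*, which encodes the co-repressor ETO2. The 6 acetylated in both were the widely expressed partners *Ldb1*, *Tcf3*, *Tcf12* and *Cbfb*, with *Etv6* and *Zfpm1*. *Runx1*, the factor that sets up definitive blood, was the only one listed in Delta alone, through a weak peak (−log10 q 2.11). That call was lost with peaks of a −log10 q of at least 3. The count of WT-alone blood factors was 7 with peaks of a −log10 q of at least 3, 4 at 4 and 0 at 5, so these were peaks of middling strength.

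**Figure D3:**
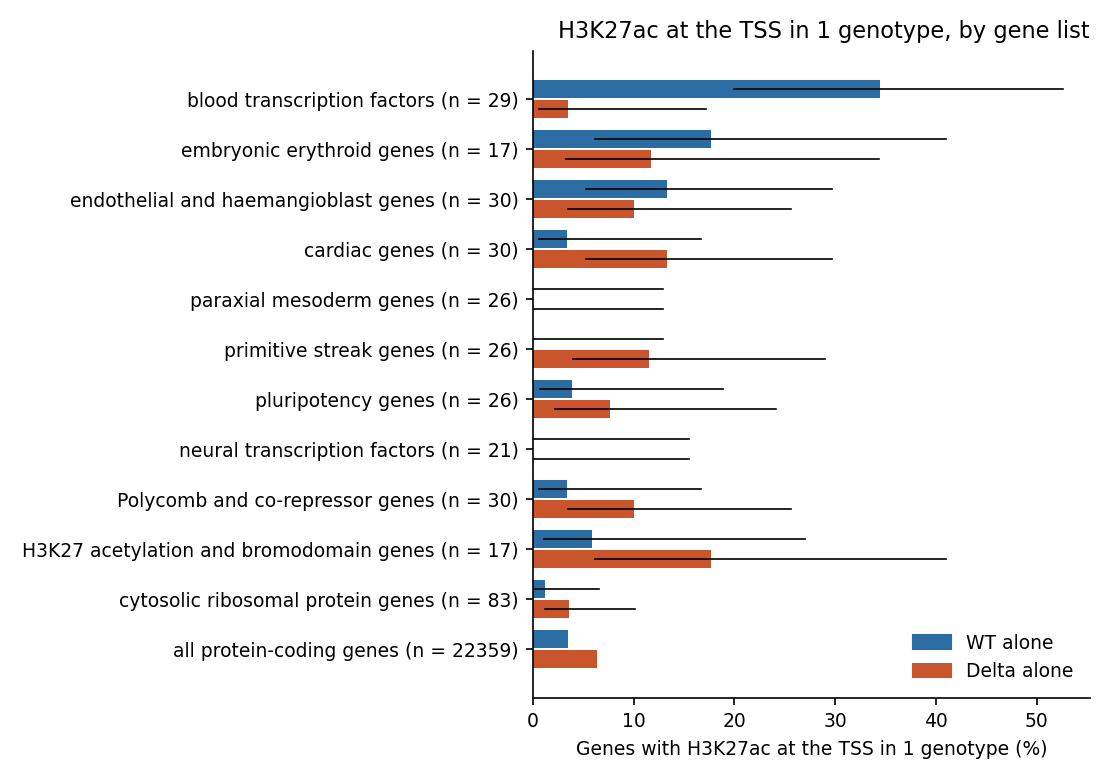
Percent of the genes of each list (x axis) with H3K27ac at the TSS in WT alone or in Delta alone, with 95% Wilson intervals as lines and the number of genes beside each list's name. WT-alone genes reach 34.5% of the blood transcription factors, against 3.43% of all protein-coding genes, and no paraxial or neural gene has the mark in 1 genotype.

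Within 50 kb of the genes the direction was the same, but this window takes in the TSS. The 10 WT-alone genes are thus counted again through their TSS peaks in the counts that follow. At least 1 WT-only peak lay within 50 kb of 16 of the 29 blood factor genes (55.2%, against 13.4% of all genes), and at least 1 Delta-only peak within 50 kb of 5 (17.2%, against 20.5%). Summed gene by gene, with a peak near more than 1 gene counted at each, 36 of 61 WT peaks there were WT-only. In the same sums 5 of 32 Delta peaks were Delta-only. Over the whole lists, 26.5% of WT peaks were WT-only and 36.3% of Delta peaks were Delta-only. At least 3 WT-only peaks with no Delta-only peak lay within 50 kb of 4 blood factor genes, *Tal1*, *Erg*, *Nfe2* and *Cbfa2t3*, a pattern found at 0.237% of all genes. At *Nfe2* 1 of the 3 lay in *Copz1*, 153 bp from a TSS of *Copz1*, with H3K4me3 in both genotypes.

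*Tal1* had 5 WT peaks and no Delta peak. The TSS peak was 1833 bp long (chr4:114728859-114730691, over the 5′ end and into an intron, −log10 q 3.38). The others lay 3.79 kb upstream of the gene's 5′ end (1453 bp), in an intron at 6.69 kb (336 bp), and downstream of the gene at 18.7 kb (816 bp) and 39.4 kb (1084 bp). The peaks at −3.79 and 18.7 kb had no H3K4me3 in either genotype, the one at 39.4 kb had it in Delta only, and the peaks inside the gene had it in both. The peaks at −3.79, 18.7 and 39.4 kb are those whose windows are printed above.

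Each of the other blood factors had its own arrangement. *Fli1* had a TSS peak of 820 bp (−log10 q 4.88, chr9:32348225-32349044) and a peak of 411 bp 14.6 kb upstream, both WT-only. *Gata2* had 2 short WT-only peaks in introns, 189 bp at 3.32 kb and 301 bp at 10 kb. At *Erg* the 4 WT-only peaks lay at an internal promoter, 128 kb from the 5′ end, and downstream of it, the longest of them 1709 bp in an intron (−log10 q 4.52).

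*Hhex*, a gene of blood, endothelium and endoderm, had a single WT-only intron peak of 545 bp (−log10 q 4.17). *Lyl1* had a peak of 887 bp over its 5′ end (−log10 q 4.42), in a stretch where *Nfix* is annotated too. The strongest of these peaks was not at a promoter. It lay 21.6 kb upstream of *Cbfa2t3* (chr8:125243956-125245205, 1250 bp, −log10 q 6.28), without H3K4me3 in either genotype. At *Sfpi1* the TSS peak was near the listing limit (−log10 q 1.45) and no H3K4me3 was listed there, so that call rests on little.

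*Zfpm1* (FOG1), the GATA cofactor, had its promoter peak in both genotypes, with 2148 bp covered in WT and 1014 bp in Delta. In its introns 3 WT-only peaks lay between 26.9 and 32.2 kb from the 5′ end, beside a WT peak of 2492 bp at 40.0 kb that 3 short Delta peaks overlapped. *Runx1* had 1 peak in each list, which did not overlap: a WT-only peak of 361 bp at 110 kb and a Delta-only peak of 721 bp at 128 kb, the latter near an internal TSS.

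**Figure D4:**
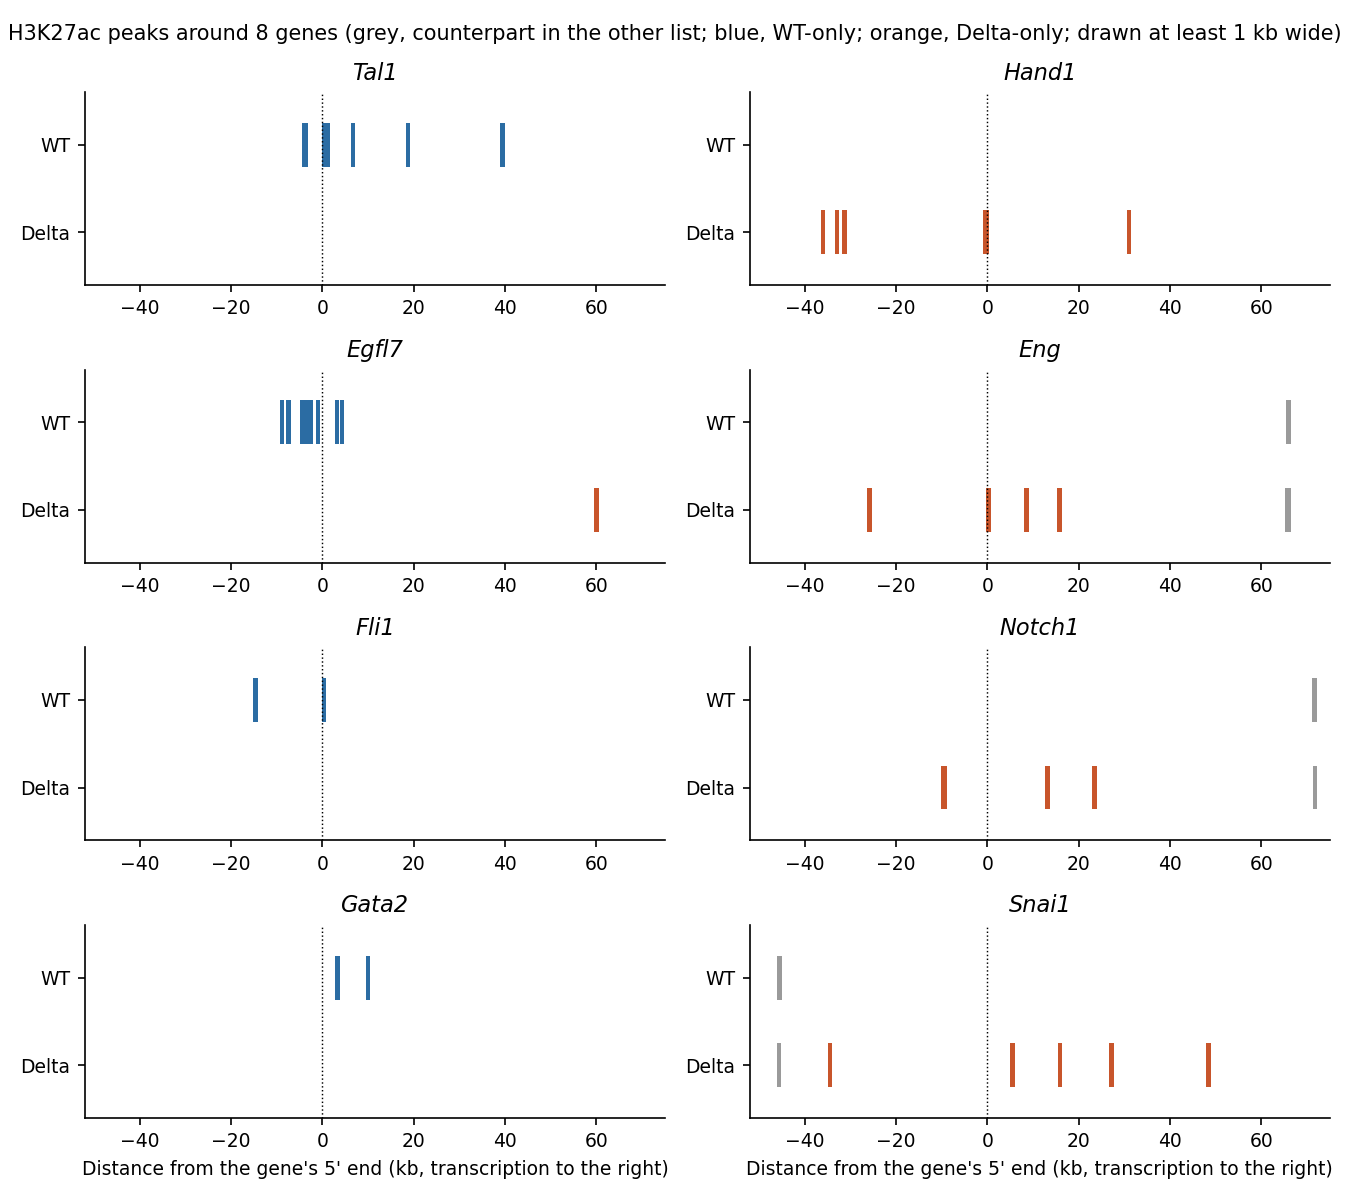
H3K27ac peaks of the WT and Delta lists (y axis) by distance from the 5′ end of 8 genes (x axis, kb, transcription to the right). Peaks with a counterpart are grey, WT-only blue and Delta-only orange, and peaks under 1 kb are drawn 1 kb wide. *Tal1* has 5 WT-only peaks and no Delta peak, and *Hand1* has 5 Delta-only peaks and no WT peak.

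To see whether other marks at the 10 WT-alone blood factor genes also differed, the length covered by H3K4me3 and H3K27me3 peaks within 2.5 kb of a TSS was compared. These lists played no part in choosing the genes, although libraries of 1 genotype shared an input. H3K4me3 covered less in Delta at 9 of the 10 genes, and nothing in either genotype at *Sfpi1*. It covered 6092 bp in WT against 4176 bp in Delta at *Tal1*, 2906 and 553 bp at *Lyl1*, and 4641 and 1528 bp at *Cbfa2t3*. At *Nfe2* the 2075 bp covered in WT went with none in Delta. A shorter H3K4me3 in Delta was common, found at 40.9% of all genes and at 587 of the 768 WT-alone genes (76.4%), so that direction says little of the blood genes (20.3% of all genes were longer in Delta).

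H3K27me3 covered more in Delta at 8 of the 10, against 17.3% of all genes and 140 of the 768 WT-alone genes (18.2%). Those shares count the many genes with no H3K27me3 in either genotype. Where both genotypes had the mark it was longer in Delta at 7 of 8 blood factor genes, 83 of 159 WT-alone genes (52.2%) and 44.5% of 6216 genes in all. It covered 1800 bp in WT against 4785 bp in Delta at *Tal1*, 4742 and 8187 bp at *Hhex*, 2922 and 5623 bp at *Cbfa2t3*, and 0 and 2442 bp at *Nfe2*. At *Gata2* it was already broad, with 7106 and 9774 bp. *Erg* was the exception (4867 and 4307 bp). A longer H3K27me3 in WT was found at 19.7% of all genes and at 29.8% of the WT-alone genes, and at 45.7% and 47.8% of those with the mark in both genotypes. These are lengths from lists called without the spike-in, so they cannot show whether the amount of H3K27me3 rose. From spike-in-scaled signal and western blot, the study reports a global fall of H3K27me3 in Delta. It reports a smaller fall at genes that SCL activates than at those it represses.

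**Figure D5:**
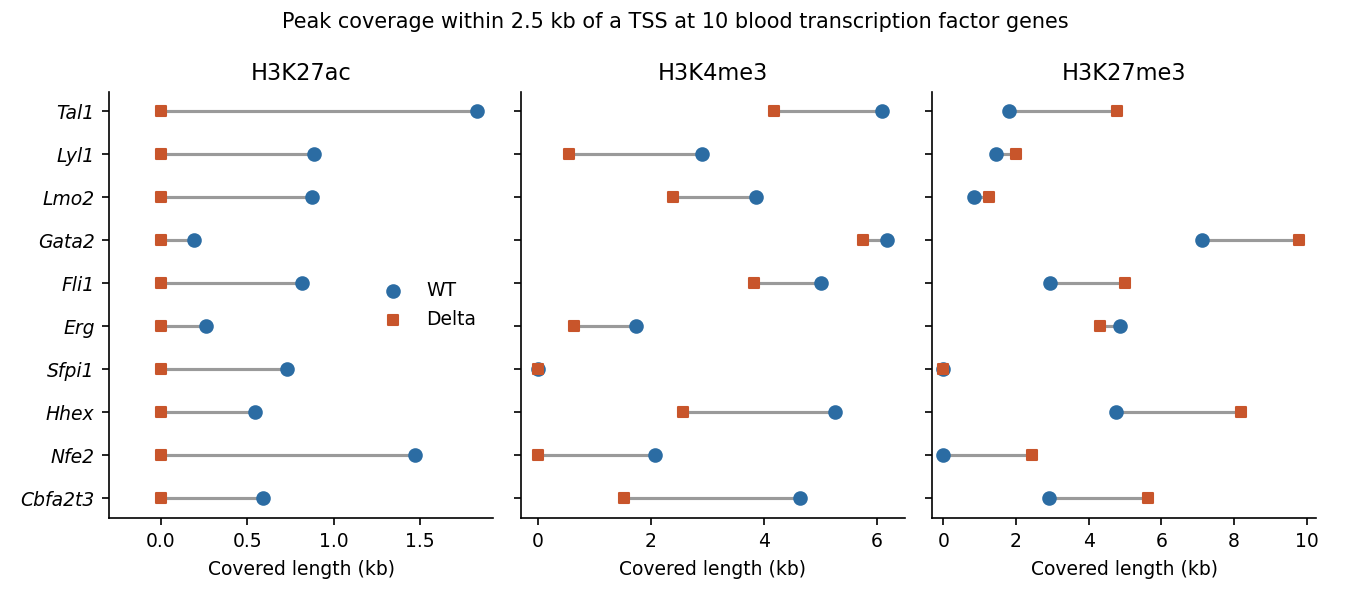
Length covered by peaks within 2.5 kb of a TSS (x axis, kb) for H3K27ac, H3K4me3 and H3K27me3 in WT (circles) and Delta (squares) at the 10 blood transcription factor genes with H3K27ac in WT alone, 1 library a point. H3K4me3 is shorter in Delta at 9 genes and H3K27me3 longer in Delta at 8. At *Sfpi1* both marks are at 0 and the points coincide.

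Over all WT-alone genes H3K27me3 was listed at 40.6% (37.2 to 44.1) in WT and 28.1% (25.1 to 31.4) in Delta, against 34.8% and 32.7% of all protein-coding genes. At Delta-alone genes it was listed at 34.9% and 36.7%, and at genes acetylated in both at 55.6% and 48.0%. H3K4me3 was listed at nearly every gene of either class, 97.9% of WT-alone genes in WT and 97.3% in Delta, 98.6% and 98.8% of Delta-alone genes. Most genes with H3K27ac in 1 genotype thus had a marked promoter in both. H2AK119ub, deposited by Polycomb, was listed at 4.69% of WT-alone genes in WT and 1.43% in Delta, at 6.60% and 2.32% of Delta-alone genes and at 9.21% and 5% of all genes, so it was listed at fewer genes in Delta in every class.

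Endothelial and haemangioblast genes share a progenitor with blood, and some were acetylated in each genotype alone. Of 30, 4 were acetylated at the TSS in WT alone (*Egfl7*, *Ets2*, *Aplnr*, *Ephb4*), 3 in Delta alone (*Eng*, *Nrp1*, *Notch1*) and 23 in neither. The WT-alone share was 13.3% (5.31 to 29.7), against 3.43% of all genes. The Delta-alone share was 10% (3.46 to 25.6), against 6.37%, which its interval includes. Of the TSS peaks behind these calls, only that of *Egfl7* (4.02) reached a −log10 q of 3. The others ranged from 1.78 (*Nrp1*) to 2.765 (*Ephb4*), so both shares rest mostly on weak peaks. *Egfl7*, a secreted factor of forming vessels, had 6 WT-only peaks from 8.87 kb upstream to 4.30 kb downstream of its 5′ end, one of them 2883 bp long. Together they made the stretch with the most WT-only peaks in the genome (chr2:26426297-26439995), tied with 6 in a stretch with no gene on chromosome 13 (chr13:98204127-98233223), whose nearest gene is *Enc1*. *Aplnr*, the apelin receptor of early mesoderm, had 3 WT-only peaks, of 192, 513 and 1270 bp. *Sox7*, an early haemogenic factor, had no TSS peak and 3 WT-only peaks within 50 kb, at −35.7, −34.2 and 22.5 kb.

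In the Delta list, *Eng*, the TGF-beta co-receptor endoglin, had 4 Delta-only peaks. They covered 403 bp just inside its 5′ end, where *Ak1* is also annotated, 1109 and 172 bp in introns at 8.60 and 15.8 kb, and 581 bp upstream at −25.8 kb. The Notch receptor gene *Notch1* had 3, at −9.47, 13.1 and 23.5 kb, the last 2 inside the gene. At least 3 Delta-only peaks with no WT-only peak lay within 50 kb of both genes, a pattern found at 0.702% of all genes. Of the 30 endothelial genes, 12 had a WT-only peak within 50 kb (40.0%, against 13.4% of all genes). A Delta-only peak lay within 50 kb of 7 (23.3%, against 20.5%), close to the share of all genes. Both counts take in the TSS peaks of the WT-alone and Delta-alone genes.

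Of 17 erythroid genes, 3 were WT alone and 2 Delta alone. *Gypc*, a glycophorin of the red cell skeleton, had 4 WT-only peaks, 3 of them in introns (1933, 456 and 394 bp) and 1 of 213 bp at its promoter. *Tfrc*, the transferrin receptor that brings in iron, had a WT-only TSS peak of 249 bp, and *Urod*, of haem synthesis, one of 225 bp. The mitochondrial transporters *Abcb10* and *Slc25a37* had Delta-only peaks of 777 and 249 bp, both of low strength (−log10 q 1.88 and 1.38).

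More cardiac genes were acetylated in Delta alone than in WT alone, as was so over all genes. Of 30, 4 were acetylated in Delta alone (13.3%, 5.31 to 29.7, against 6.37% of all genes), 1 in WT alone, 2 in both and 23 in neither. The 4 were *Hand1*, *Gata6* and *Tbx20*, transcription factors of heart mesoderm, and *Tnni1*, a troponin subunit. At *Tnni1* no H3K4me3 was listed near a TSS in either genotype. The WT-alone gene was *Bmp2*, a signal that induces heart. Those in both were *Myl4* and *Tbx3*, and *Tbx3* was covered for 321 bp in WT against 1607 bp in Delta. The interval of the cardiac share includes the background. A Delta-only peak lay within 50 kb of 8 of the 30 cardiac genes (26.7%, against 20.5% of all genes). A WT-only peak lay within 50 kb of 1 (3.33%, against 13.4%). Both counts within 50 kb take in the TSS peaks. Peaks there were also summed gene by gene, with a peak near more than 1 gene counted at each. In these sums 13 of 22 Delta peaks were Delta-only, 5 of them at *Hand1*, and 1 of 10 WT peaks was WT-only. Over the whole lists, 36.3% of Delta peaks were Delta-only and 26.5% of WT peaks were WT-only.

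*Hand1* stood at the head of this list, with 5 Delta-only peaks and no WT peak. The TSS peak covered 1291 bp (chr11:57645990-57647280, −log10 q 2.51). A group of 3 lay between 31.3 and 36 kb upstream (515, 1068 and 413 bp), with no H3K4me3 in either genotype. Another, of 181 bp, lay 31.0 kb downstream over an exon of *Sap30l*. It was 75 bp from a TSS of *Sap30l* and had H3K4me3 in both genotypes. At the *Hand1* promoter H3K4me3 covered 2594 bp in WT against 4646 bp in Delta, and H3K27me3 covered 5672 and 4416 bp. H3K27me3 was shorter in Delta at *Gata6* (3189 and 1510 bp) and *Tbx20* (5001 and 3428 bp) as well, and longer at *Tnni1* (167 and 1371 bp). These were weak peaks: at a −log10 q of at least 3 only *Tbx20* remained of the 4.

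None of 26 paraxial mesoderm genes had H3K27ac at the TSS in either genotype, *Tbx6* and *Irx3* included. At least 1 Delta-only peak lay within 50 kb of 5 of them (19.2%), close to the 20.5% of all genes. *Snai1*, which drives the passage of cells through the primitive streak, had 5 Delta-only peaks within 50 kb and no WT-only peak. Of those downstream, the nearest lay 5.56 kb and the farthest 48.4 kb from its 5′ end. Another lay 34.5 kb upstream, in an intron of *Rnf114* and 46 bp from a TSS of *Rnf114*, with H3K4me3 in both genotypes. *Snai1* is named here after its values were seen.

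Of 26 primitive streak genes none was WT alone and 3 were Delta alone (11.5%, 4.00 to 29.0, which includes the 6.37% of all genes). They were *Mixl1*, a homeobox factor of the streak, and *Axin2* and *Lef1*, a target and a transcription factor of Wnt signalling. *Lef1* had a TSS peak of 1434 bp, *Mixl1* one of 406 bp and *Axin2* one of 173 bp. Their −log10 q was 2.59, 1.59 and 2.41 in that order, all below 3. H3K4me3 was longer in Delta at all 3, against 519 of the 1424 Delta-alone genes (36.4%), with 4355 and 5063 bp at *Lef1*, 1026 and 1753 bp at *Mixl1*, and 3642 and 5080 bp at *Axin2*. H3K27me3 went from 3240 bp in WT to 1153 bp in Delta at *Lef1*, and from 1397 bp to none at *Mixl1*.

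The label mesoderm was checked against its markers. Of the defining genes *Kdr*, *Pdgfra*, *T*, *Mesp1* and *Tal1*, only *Tal1* was acetylated at the TSS, in WT alone. *Kdr* (Flk1), the receptor that marks blood and vessel mesoderm, had 2 WT-only peaks within 50 kb, one over exon sequence inside the gene (chr5:76357733-76359197, 1465 bp, −log10 q 5.93), and no Delta peak. Markers of other cells were not acetylated at the TSS in either genotype: *Pou5f1* and *Nanog* of pluripotent cells, *Pax6* of neural cells, *Cdh5* and *Pecam1* of endothelium, *Tnnt2* and *Myl7* of heart muscle. H3K27ac was listed at few genes of any lineage, so the lists do not tell which other cells the sort held.

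Of 26 pluripotency genes 1 was WT alone (*Klf2*), 2 were Delta alone (*Klf4*, *Lin28a*) and 3 were in both (*Sall4*, *Trim71*, *Jarid2*). None of 21 neural transcription factor genes was acetylated. Genes of chromatin regulators were mostly common to both genotypes: 15 of 30 Polycomb and co-repressor genes, with *Pcgf5*, a subunit of a variant PRC1 complex, WT alone, and *Yaf2*, *Rcor1* and *Sin3a* Delta alone. *Rybp* was covered for 1614 bp in WT against 1832 bp in Delta. Of 17 genes for acetylation and bromodomain proteins 11 were in both, among them *Ep300* (2017 and 1162 bp) and *Crebbp* (976 and 772 bp), the writers of the mark. *Chd4* was WT alone, and the genes listed in Delta alone included *Kat2a* and *Sirt6*. Of 83 ribosomal protein genes, which nearly every cell uses, 71 were in both, 1 was WT alone and 3 were Delta alone.

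The strongest single-genotype promoter peaks were not at genes of these lists. In WT alone they were at *Eapp* (−log10 q 13.0, 262 bp), which encodes an E2F-associated protein, *Ing3* (9.60, 230 bp), a histone acetyltransferase subunit, and *N6amt1* (9.50, 216 bp), a methyltransferase. They were followed by *A230046K03Rik*, the promoter shared by *Pole* and *Pxmp2*, *Scfd1*, *Pggt1b*, *0610011L14Rik*, *Ilf2*, *Sucla2* and *Lztr1*. In Delta alone they were at *Nup85*, a nuclear pore protein (10.1, 234 bp), *Zfp821* (9.65, 312 bp), the promoter shared by *C730034F03Rik* and *Chkb* (9.21, 783 bp) and *Secisbp2* (8.90, 228 bp), followed by that of *Mrps6* and *Slc5a3*, and by *Psmg3*, *Btbd8*, *Tsn*, *Heatr5a* and *Pex7*. All of these genes had H3K4me3 at the TSS in both genotypes, and their H3K27ac peaks were 189 to 783 bp long. A WT-only peak of still higher strength (−log10 q 14.1, 243 bp, chr4:116862300-116862542) lay 7056 bp from the TSS of *Kif2c*, with no other mark.

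Where both genotypes were acetylated, the difference in covered length was large at some genes. It was largest toward WT at *Epb4.1* (2794 bp in WT, 500 bp in Delta), which encodes protein 4.1 of the red cell skeleton, and at *Zfp217* (2331 and 298 bp). *Eif4b*, *Msh5*, *BC031781*, *Ppm1b*, *Impact*, *Wdr1*, *Gse1* (2465 and 1069 bp) and *Phlpp1* followed.

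Toward Delta it was largest at *Smad7* (1577 and 4242 bp), an inhibitor of TGF-beta and BMP signalling, and at the kinase gene *Pim3* (421 and 3084 bp). *Zmiz1* (418 and 3042 bp), *Id3* (690 and 3298 bp), whose protein blocks E proteins and is a BMP target, *Hivep2* (180 and 2504 bp), *Irf2bp2* (353 and 2570 bp) and the immediate early gene *Fos* (199 and 2063 bp) came next, then *Tsc22d1*, *Arid1b* and *Zmynd8*. At *Fos* H3K27me3 covered 4285 bp in WT against 1980 bp in Delta, and at *Hivep2* 3356 and 694 bp.

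Peaks of 1 genotype also lay in clusters. Joining peaks of both lists up to 12.5 kb apart gave 5626 stretches, of which 13 held at least 3 WT-only and no Delta-only peaks, and 33 the reverse. The WT stretches with the most were those of *Egfl7*, chromosome 13, *Tal1* (4 peaks), the *Zfpm1* introns (3) and chr8:122892872-122898350 (3), which lies 114416 bp from a TSS of *Gse1*, inside the long transcript unit Gm20388. In Delta they were chr7:149506169-149519847 (5, overlapping 6330512M04Rik), chr4:62382203-62406209 (5, 20474 bp from a TSS of *Rgs3*), chr4:104763221-104767956 in *Prkaa2* (4), chr4:118690860-118704311 (4, 56677 bp from a TSS of *Lao1*, the nearest gene) and a histone gene cluster at chr13:23622437-23655099 (4).

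To ask which letters the distal peaks of 1 genotype hold, 13 motifs were counted in 300 bp windows at their midpoints, on both strands. The GATA letters AGATAA were in 22% (18.5 to 26.0) of 463 distal WT-only windows, 13.1% (10.5 to 16.2) of 542 distal Delta-only windows, 12% (8.35 to 17.1) of WT distal windows with a counterpart and 10.6% (7.13 to 15.3) of Delta ones. The E-box CAGNTG differed little, at 56.4% and 53.9%. The ETS letters CCGGAAG were in 2.59% of WT-only and 3.14% of Delta-only windows, and the T-box letters AGGTGTGA in 0.864% and 0.554%. The TCF and LEF letters CTTTGAT were in 4.97% and 4.61%, the TEAD letters GGAATG in 16.8% and 14.2%, the AP-1 letters TGANTCA in 9.29% and 7.20%, and the homeobox letters TAATTA in 6.05% and 4.43%. The other E-box, CATATG, was in 4.97% of WT-only and 3.32% of Delta-only windows. The ETS letters of the other form, CAGGAAG, were in 15.8% and 17.5%, and the CCAAT box in 31.3% and 24.9%. The GC box GGGCGG was in 10.8% of WT-only and 18.8% of Delta-only windows. Base composition moves with these shares, since median GC was 49.7% in the WT-only and 52.3% in the Delta-only windows. Within windows of 45 to 55% GC, AGATAA was in 22.1% (17.5 to 27.5) of 258 WT-only and 15.7% (12 to 20.4) of 286 Delta-only windows, intervals that overlap, and in 12.5% of genome windows. In that range it was also in 16% (9.40 to 25.9) of 75 WT and 21.9% (14.0 to 32.7) of 73 Delta windows with a counterpart, so the share of WT-only windows did not stand apart from theirs. At a −log10 q of at least 3 it was in 18.6% (13.0 to 25.8) of 140 and 6.38% (2.96 to 13.2) of 94, whose median GC was farther apart, 50.3% and 55.5%. Within 45 to 55% GC these became 16.4% (9.66 to 26.6) of 73 and 7.69% (2.65 to 20.3) of 39, with intervals that overlap.

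The composite of CTG, the end of an E-box, and GATAA 8 bases after it is the arrangement that SCL and a GATA factor bind together. It can overlap AGATAA. It was in 13 of the 463 distal WT-only windows (2.81%, 1.65 to 4.74), 4 of the 542 distal Delta-only windows (0.738%, 0.287 to 1.88) and 0.943% of genome windows. Among distal windows with a counterpart it was in 3 of 216 in WT (1.39%, 0.474 to 4.00) and 1 of 218 in Delta (0.459%, 0.081 to 2.55). Both of these intervals overlap that of the WT-only windows. Windows of 45 to 55% GC gave 2.33% for WT-only and 1.05% for Delta-only peaks, with intervals that overlap. Some of these sites are printed with 8 bases on each side, capitals on the composite and its strand as in the genome. They were picked because the letters of the SCL complex lie there under a peak listed in 1 genotype. A WT-only site lies 37.6 kb from a TSS of *Cd34*, the surface marker of blood progenitors (chr1:196802651-196802682, peak −log10 q 4.31). Another lies in an intron of *Aff3* (chr1:38556446-38556477, 2.66). The *Hspg2* site lies 8.54 kb from a TSS of that basement membrane gene (chr4:137033535-137033566, 1.73). The *Kdr* site lies between genes, 77.3 kb from a TSS of *Kdr*, the nearest (chr5:76296532-76296563, 1.70). The *Gse1* site lies in the WT-only stretch near that gene (chr8:122895871-122895902, 3.94). The *Hspg2* and *Kdr* peaks were near the lowest −log10 q of the WT list, 1.35, so those calls rest on little. The Delta-only site lies in an intron of the histone deacetylase gene *Hdac4* (chr1:93980190-93980221, 3.47).
*Cd34* site, WT-only: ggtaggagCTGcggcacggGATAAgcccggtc
*Aff3* site, WT-only: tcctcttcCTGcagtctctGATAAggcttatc
*Hspg2* site, WT-only: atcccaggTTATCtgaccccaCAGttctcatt
*Kdr* site, WT-only: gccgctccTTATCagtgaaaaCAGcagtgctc
*Gse1* site, WT-only: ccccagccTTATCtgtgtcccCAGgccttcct
*Hdac4* site, Delta-only: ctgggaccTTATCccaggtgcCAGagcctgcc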

How the data were processed

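H3K27ac, H3K4me3, H3K27me3 and H2AK119ub were measured by ChIP-Rx in 2 genotypes, with 1 library per mark and genotype and 2 inputs, whose reads were not used here. According to the study's methods, the authors trimmed reads (Trim Galore), mapped them to mm9 and dm3 with Bowtie, kept unique alignments, removed duplicates (SAMtools) and called broad peaks in each library with MACS2 (2.0.10 in the submitters' processing notes) against the input of the same genotype. The spike-in scaled signal densities and not peak calls, so the lists cannot show a global change in acetylation or in any other mark. The deposited lists give a fold enrichment (a ratio), the p-value and q-value on a −log10 scale, and a score for each peak, all as the authors made them. Only peaks past the caller's limit are listed (the largest H3K27ac q-value was 0.0474), so a missing peak means no listed peak. Read depth cannot be computed from the lists, so no depth interval is given. The study's reporting summary prints the same number for the total and the mapped reads of the WT H3K27ac library. Its depth therefore cannot be read from there with confidence. As printed, total reads were more in Delta and mapped reads more in WT. The part of depth in the number and strength of listed peaks was not tested.

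Groups were taken from sample titles. Peaks overlapping by at least 1 bp were counterparts. Coordinates are 1-based mm9, and genes and TSSs (22359 protein-coding genes, 46015 sites) are from GENCODE M1. Covered length is the union of peak bases within 2500 bp of a gene's TSSs. Peak numbers have exact Poisson intervals (4439 to 4705 in WT, 5128 to 5413 in Delta) and shares have Wilson intervals. Neighbouring peaks and genes sharing a promoter are not independent. With 1 library per group no test was run. Overlaps, gene calls and motif searches were tested on simulated data, with 0 errors in 6 checks, and overlaps were checked against bedtools 2.31.1. Python 3.11.15, pandas 2.3.3, numpy 2.4.6, scipy 1.17.1 and matplotlib 3.10.9 were used.

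Members, gene lists, rules and motifs were chosen with earlier results of these data known. The named genes are list genes acetylated in 1 genotype, the 12 strongest such genes a side, the 10 genes a side with the largest difference in covered length where both genotypes had the mark, and the 5 strongest peaks and 5 fullest stretches a side. Genes named for 3 or more peaks of 1 genotype within 50 kb, the ribosomal list, the printed sites, motif classes and counts limited to genes with H3K27me3 in both genotypes were chosen after values were seen. Of the listed gene names 3 were not found in the annotation and are not reported, and Spi1 is listed as Sfpi1. An item that the rule names and the sequence of a window are not reported here.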

Additional observations from a re-analysis of the deposited data

How the results depend on the processing

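Of 142 values under 11 alternative settings, 67 moved by less than the interval or 1.5 times, 69 moved more and 6 reversed. No paired analysis was possible because each genotype had 1 H3K27ac library, and none could be left out. Settings with a −log10 q of 4, 5 or 6 were added after seeing the data. Reversed were the Delta over WT ratios of peak number (1.15 to 0.975) and covered length (1.11 to 0.968) with a −log10 q of at least 3 in both lists, and the ratio of Delta-alone to WT-alone genes, 1.85, which became 0.972 in that setting and 0.984, 0.747 and 0.658 when peaks of 1 genotype had to reach 4, 5 or 6. With the same number of top peaks these ratios were 1.000, 1.005 and 1.18. Delta-alone genes numbered 448, 183, 65 and 25 and WT-alone genes 360, 186, 87 and 38 with peaks of 1 genotype at 3, 4, 5 and 6. With 3 in both lists 921 genes were Delta alone and 2126 were in both.

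The share of WT peaks with a counterpart was 83.6% with only peaks of at least 3 asked for, 64.3% with 3 in both lists, 61.5% with 50% coverage, 75% with gaps up to 1000 bp, 74.8% with peaks joined and 69.9% with equal numbers. For Delta peaks it was 82.0%, 66.0%, 52.0%, 65.5%, 65.4% and 69.8%. Near a TSS lay 82.2% of WT-only, 95.8% of WT shared, 85.9% of Delta-only and 95.9% of Delta shared peaks with 3 in both lists. With a window of 1000 bp these were 92.5% (WT shared), 68.5% (Delta-only) and 92.3% (Delta shared). H3K27me3 at WT-alone genes, with 3 in both lists, was 49.3% (WT) and 33.3% (Delta), and 24.2% in Delta with peaks of 1 genotype at 3. At Delta-alone genes, with 3 in both lists, it was 40.9% (WT) and 44.6% (Delta).

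The WT-alone blood factors numbered 8 with a window of 1000 bp, 8 with 3 in both lists and 10 with equal numbers, and Delta-alone cardiac genes 3, 2 and 4. The cause of these changes was not tested beyond the settings' own construction.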
